A study of Dendrobium officinale with 6 samples.

Results

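The enzymes of carotenoid and xanthophyll synthesis were followed in Dendrobium officinale as 8 KEGG orthologs, groups of genes to which the KEGG database gives the same function. They were phytoene synthase (PSY, K02291), phytoene desaturase (PDS, K02293), zeta-carotene desaturase (ZDS, K00514), lycopene beta cyclase (LCYB, K06443), lycopene epsilon cyclase (LCYE, K06444), beta-carotene hydroxylase (BCH, K15746), zeaxanthin epoxidase (ZEP, K09838) and violaxanthin de-epoxidase (VDE, K09839). A unigene, an assembled transcript contig, was a member when the first ortholog in its annotation was on this list. The rule gave 88 of 157901 unigenes and 8 of 4137 annotated orthologs. ZEP had 29 unigenes, PDS 21, PSY 12, LCYE 10, ZDS 7, BCH 5, and LCYB and VDE 2 each. No read was counted for 2 of the 88 in any library, 11 were at 0 in PLBs only and 5 in leaves only. The organism named in the best protein match was Dendrobium catenatum for 82 unigenes, Phalaenopsis equestris for 5 and Dendrobium nobile for 1, all orchids.

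The study compared leaves of the original, greenhouse-grown plants with protocorm-like bodies (PLBs), the small embryo-like bodies from which orchids are propagated in culture. Each tissue had 3 RNA-Seq libraries, described as biological replicates. Nothing says whether these were separate plants or separate cultures, so the p-values measure only the spread between these samples. PLBs were derived from seeds. The culture formula in the labels, which the methods describe as the medium for multiplying PLBs after induction on another, was diluted MS with 1.0 mg/L of the cytokinin 6-BA, 0.5 mg/L of the auxin NAA and 1.5 to 2.0 mg/L of the auxin 2,4-D, with potato juice at 100 g/L. Cultures grew at 1600 lx, 16 h of light and 8 h of dark, for 60 d. Neither tissue carried a transgene or a mutation by the labels. Plants harvested for chemical extraction were about 3 years old, and whether those used for RNA were of that age is not given in the sources used here. Organ, growth regulators, light and culture cannot be told apart in this contrast. In such bulk samples, fewer cells of a type and less RNA per cell cannot be told apart either.

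Libraries held 17602153 to 18408442 expected counts, the fractional read counts that RSEM assigns to contigs. The 8 enzymes took 0.0746% to 0.0776% of them in leaves and 0.0395% to 0.0454% in PLBs. The labels were checked with markers. Rubisco small subunit (RBCS) stood at 4129 to 4721 FPKM in leaves and 200 to 290 FPKM in PLBs, and the replication licensing factor MCM2 at 18.8 to 21.4 FPKM in leaves and 87.4 to 103 FPKM in PLBs. All 3 leaf markers were lower in PLBs, 6 of 7 markers of dividing cells were higher, and histone H4 was lower (log2 fold change −0.59, edgeR adjusted p = 0.00104). By the same test, described below, 38.6% of all orthologs tested were lower and 37.2% higher. MCM5, among the higher markers, took 71.9% of its counts in leaves and 77.5% in PLBs from LOC110105556, an uncharacterized gene. PLB replicate 3 stood apart in its light-harvesting genes, which summed to 609 FPKM against 1796 and 1725 FPKM in the other PLB libraries, and it was the lowest PLB library for 6 of the 8 carotenoid orthologs. What its part in the results below was, beyond the values given without it, was not tested.

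Carotenoids are plastid isoprenoids made from geranylgeranyl diphosphate (GGPP). PSY joins GGPP molecules into colourless phytoene, PDS and ZDS desaturate it stepwise towards lycopene, and the isomerases Z-ISO and CRTISO set its double bonds. The route then forks: LCYB alone gives beta-carotene, while LCYE together with LCYB gives alpha-carotene, the precursor of lutein. BCH hydroxylates beta-carotene to zeaxanthin, and ZEP and VDE run the xanthophyll cycle between zeaxanthin and violaxanthin. In leaves these pigments sit in the light-harvesting antennae and protect them from excess light, and cleaved carotenoids give abscisic acid and strigolactones.

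Most of the route was lower in PLBs. Of the 8 orthologs, 6 were called lower (PSY, PDS, ZDS, LCYB, ZEP and VDE), BCH was called higher, and LCYE was not called. The call rested on edgeR's quasi-likelihood test on summed counts with a Benjamini-Hochberg adjusted p under 0.05. Among all 4103 orthologs tested, 38.6% were called lower and 37.2% higher. The median log2 fold change, PLB over leaf, was −1.31 over the 8 enzymes and 0.01 over all orthologs. Leaving out any single library kept 6 orthologs lower and 1 higher. Scaled by library size only, without the TMM factors, the median of all orthologs moved from 0.01 to 0.26 and their calls from 1526 higher and 1584 lower to 2017 higher and 1195 lower. The 6 lower calls held there and LCYE was called higher.

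**Figure D1:**
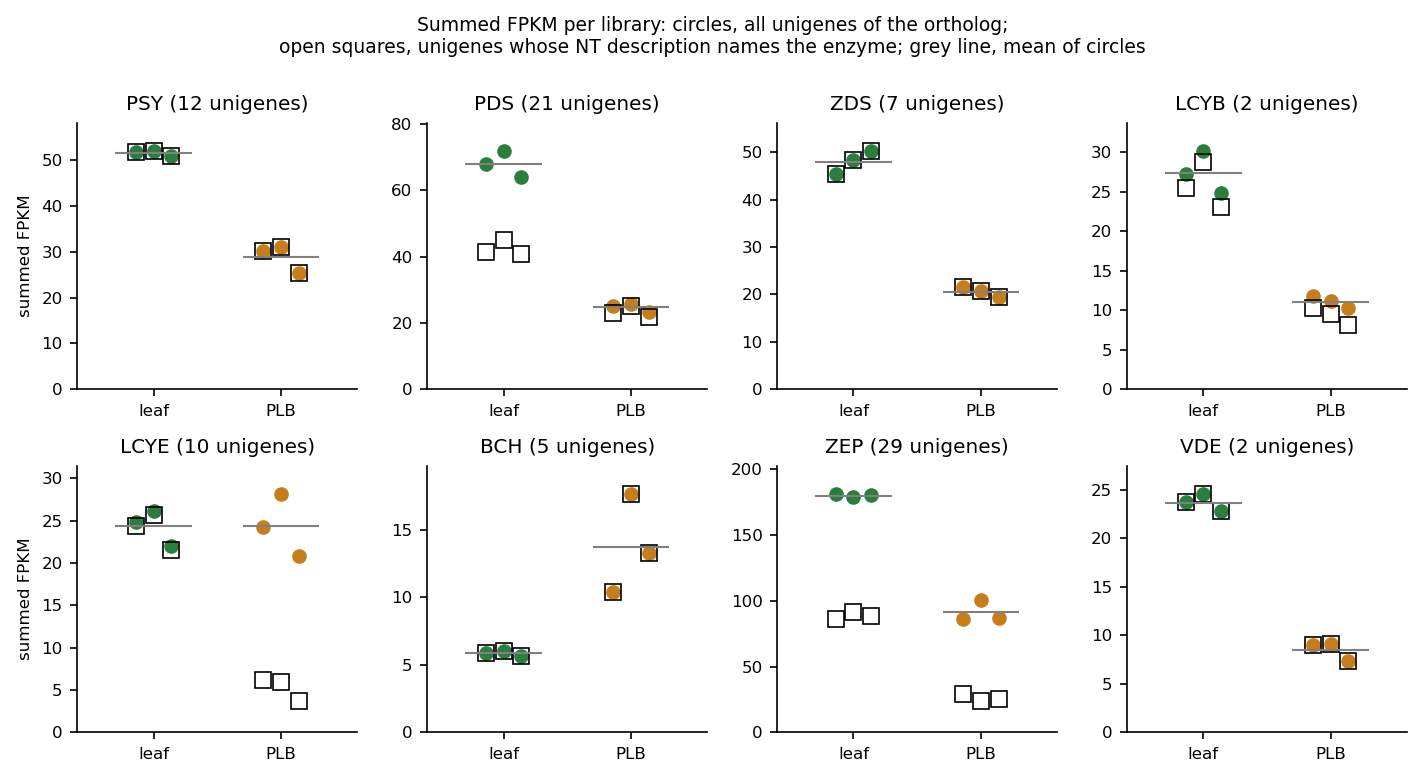
Each panel shows the summed FPKM of an ortholog in the 3 leaf and the 3 PLB libraries on a linear axis from 0, with circles for all its unigenes, a grey line for their mean, and open squares for the unigenes whose nucleotide match names the enzyme. Circles of leaf and PLB overlap only for LCYE, and there the squares fall from 21.5 to 25.7 FPKM in leaves to 3.73 to 6.13 FPKM in PLBs.

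Summed FPKM, which corrects for contig length, gives the order of the levels. In leaves ZEP was highest (180 ± 1.17 FPKM, SD, n = 3), followed by PDS (68.0 ± 3.85), PSY (51.6 ± 0.633) and ZDS (48.0 ± 2.37). LCYB (27.4 ± 2.63), LCYE (24.3 ± 2.12) and VDE (23.7 ± 0.876) followed with overlapping ranges between neighbours, and BCH was lowest (5.86 ± 0.169). In PLBs ZEP was again highest (91.1 ± 7.94), and PSY (28.9 ± 3.02), PDS (24.7 ± 1.18), LCYE (24.4 ± 3.65) and ZDS (20.5 ± 1.08) overlapped from neighbour to neighbour. BCH (13.8 ± 3.65) overlapped LCYB (11.1 ± 0.784), and VDE was last (8.51 ± 0.979). This order holds for the ortholog sums. With unigenes named as the enzyme only, a restriction explained below, PSY (28.9 FPKM) and ZEP (26.0 ± 2.71) overlapped in PLBs and LCYE (5.26 ± 1.33) had the lowest mean.

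A KEGG ortholog can gather contigs of several genes. The best match of a unigene among nucleotide sequences (its NT description) usually gives an NCBI gene number (LOC), and unigenes with the same number were summed as a locus. This grouping, like every restriction by NT description below, was added after the values had been seen. The 88 unigenes formed 26 loci, 23 of them with a LOC number, and the assembly placed them in 18 clusters and 22 unclustered unigenes. The NT description named the enzyme for 59 unigenes and something else for 29. Loci, clusters and unigenes were called when the adjusted p was 0.001 or less and the change was at least 1 on the log2 scale in either direction.

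Of 25 loci tested, 5 were called higher (20.0%) and 12 lower (48.0%), against 17.4% and 21.4% of the 29109 loci tested in all. Leaving out a library gave 4 to 6 higher and 11 to 12 lower. Of 35 clusters tested, 5 were higher (14.3%) and 18 lower (51.4%), against 17.4% and 22.9% of 36425. A cluster was counted with all its contigs, and 9 of the 40 also held contigs outside the 8 orthologs. Of the 26 tested clusters with member contigs only, 4 were higher and 15 lower. Of the other 9, CL28 was called lower although its single member contig overlapped between tissues, and CL3859 was called lower although its member contigs were at 5.98 FPKM in leaves and 10.1 FPKM in PLBs. Without leaf replicate 2, leaf replicate 3 or PLB replicate 2, 2 clusters were higher, and without PLB replicate 3 there were 3. Over all clusters, higher calls fell from 6350 to between 2904 and 4911 when a library was left out. Of 71 unigenes tested, 10 were higher (14.1%) and 25 lower (35.2%), against 16.8% and 22.9% of 70383. The 10 fell to between 4 and 6 without any single library, the lowest value coming without leaf replicate 2 or leaf replicate 3. Over all unigenes, higher calls fell from 11858 to between 4591 and 6879 in the same fits.

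PSY is the entry enzyme and is usually the step that limits flux into carotenoids. Its summed level was 51.9, 52.0 and 50.9 FPKM in leaves and 30.2, 31.1 and 25.5 FPKM in PLBs. The lowest leaf value exceeded the highest PLB value, and the log2 fold change was −1.10 (SE 0.078, edgeR adjusted p = 7.22e-06). All 12 of its unigenes matched a phytoene synthase.

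The PSY sum held loci that behaved differently. LOC110111885, which carried 92.2% of PSY counts in leaves and 83.4% in PLBs, was at 43.3, 43.1 and 42.0 FPKM in leaves and 22.1, 21.5 and 18.3 FPKM in PLBs (log2 fold change −1.33, SE 0.12, edgeR adjusted p = 2.32e-05). LOC110098011, described as phytoene synthase 2, was at 2.49, 3.0 and 2.27 FPKM in leaves and 5.26, 7.81 and 6.11 FPKM in PLBs. Its ranges did not overlap, but it was not called under the locus rule (log2 fold change 0.89, SE 0.24, edgeR adjusted p = 0.0098). It made up 5.01% ± 0.677 of PSY FPKM in leaves and 22.2% ± 4.17 in PLBs (exact two-sided permutation p = 0.1, the smallest that 3 against 3 libraries allow). CL996.Contig6, a contig matching a D. nobile phytoene synthase, had 35.9, 35.6 and 39.5 counts in leaves and none in PLBs. It was at least 45.9-fold lower there, with 3 counts over the PLB libraries taken as the floor, and its call as a unigene was lost without any of the leaf libraries. This contig and those of LOC110098011 form a single assembly cluster, CL996. Summed, the cluster was at 5.96 ± 0.231 FPKM in leaves and 6.39 ± 1.30 FPKM in PLBs, with overlapping ranges. It was not called (log2 fold change 0.10, SE 0.23, edgeR adjusted p = 0.702). Whether they are separate genes or contigs sharing reads was not tested.

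PDS, which removes hydrogen from phytoene, fell as well. It was at 68.0, 71.8 and 64.1 FPKM in leaves and 25.1, 25.7 and 23.4 FPKM in PLBs (log2 fold change −1.79, SE 0.079, edgeR adjusted p = 9.41e-07). The ranges lay far apart. Part of the fall came from a second gene of the ortholog: LOC110106072, described as phytoene dehydrogenase-like, was at 26.7, 26.7 and 23.4 FPKM in leaves and 0.92, 0.71 and 0.65 FPKM in PLBs. Its log2 fold change was −5.68 (SE 0.17, edgeR adjusted p = 2.44e-07), and its share of PDS FPKM was 37.6% ± 1.45 in leaves and 3.07% ± 0.518 in PLBs (exact permutation p = 0.1). Its largest contig, Unigene12701, had 532, 464 and 428 counts in leaves and none in PLBs, at least 588-fold lower. All 5 of its contigs were called lower. Their best NR protein is a phytoene desaturase of D. catenatum for all 5, while the best Swiss-Prot match is zeta-carotene desaturase for 1 and none is given for the other 4.

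The gene described as phytoene desaturase itself, LOC110108194, was at 41.3, 45.1 and 40.8 FPKM in leaves and 22.9, 25.0 and 21.8 FPKM in PLBs. That was a smaller fall than the ortholog sum showed (log2 fold change −1.23, SE 0.12, edgeR adjusted p = 3.06e-05), and the call was lost when counts were scaled by library size only (log2 fold change −0.91). Its contig with the most counts, CL1582.Contig1, went from 757, 766 and 679 counts to 175, 214 and 160 (log2 fold change −2.30, adjusted p = 2.58e-05).

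ZDS, the next desaturase, came from a single gene, LOC110095455, with 7 contigs. The ortholog was at 45.5, 48.3 and 50.2 FPKM in leaves and 21.6, 20.7 and 19.4 FPKM in PLBs (log2 fold change −1.70, SE 0.079, edgeR adjusted p = 1.12e-06), with no overlap. Its contigs did not move together. CL3835.Contig1 went from 962, 986 and 1011 counts in leaves to 139, 218 and 154 in PLBs (log2 fold change −2.83), and CL3835.Contig4 from 487, 522 and 558 to 8.67, 15.0 and 11.9 (log2 fold change −5.73). CL3835.Contig3 had no counts in leaves and 47.9, 35.5 and 21.2 in PLBs, at least 28.1-fold higher. The call of that low contig (edgeR adjusted p = 6.97e-04) was lost without any of the 6 libraries.

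**Figure D2:**
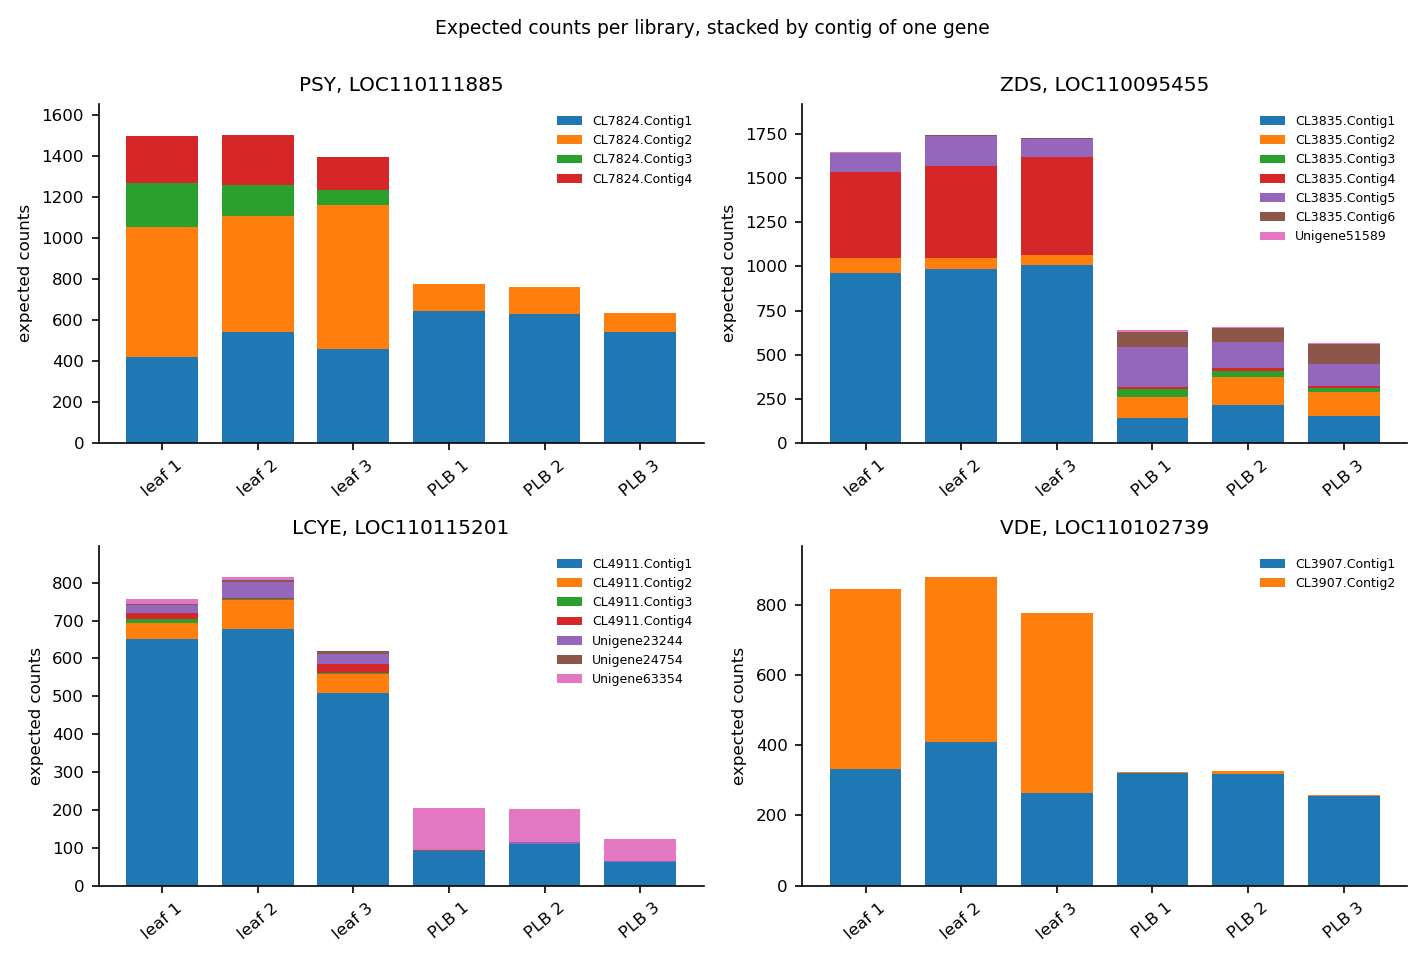
Bars show the expected counts of a gene in each of the 6 libraries on a linear axis, stacked by contig, for the genes that carry most of PSY, ZDS, LCYE and VDE in leaves. In all 4 panels the PLB bars are shorter and the contigs take different shares: CL7824.Contig1 fills 83.7% of the PSY gene's counts in PLBs against 32.3% in leaves, and CL3907.Contig2 of VDE drops from 60.1% to 1.38%.

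Shifts between contigs of a gene, seen in that plot of stacked counts, were no more frequent among the carotenoid genes than elsewhere. RSEM splits reads among contigs that share sequence, so values of single contigs of a gene are less certain than their sum. Of 17 loci with at least 2 tested contigs, 9 had contigs with log2 fold changes of both signs (52.9%) and 3 had contigs called in both directions (17.6%). Among all 10195 such loci with an ortholog, these shares were 68.9% and 25.8%. In the PSY gene LOC110111885, CL7824.Contig1 was at 418, 541 and 460 counts in leaves and 642, 630 and 541 in PLBs (log2 fold change 0.05, SE 0.16, adjusted p = 0.788). No call was made there, while CL7824.Contig2 went from 635, 566 and 701 counts to 135, 131 and 91.3 (log2 fold change −2.72, adjusted p = 3.06e-05). CL7824.Contig4 had 227, 247 and 161 counts in leaves and none in PLBs, at least 262-fold lower. Whether these contigs are splice forms, alleles or assembly products was not tested.

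At the fork of the route, LCYB was lower in PLBs. It was at 27.2, 30.1 and 24.9 FPKM in leaves and 11.8, 11.2 and 10.2 FPKM in PLBs (log2 fold change −1.52, SE 0.10, edgeR adjusted p = 5.65e-06), with no overlap. Unigene39751, the contig described as lycopene beta cyclase (LOC110095206), carried it, at 25.5, 28.7 and 23.0 FPKM in leaves and 10.2, 9.45 and 8.16 FPKM in PLBs (log2 fold change of the locus −1.79, SE 0.14). The other contig, CL28.Contig2, matches an aldo-keto reductase at the nucleotide level and in NR, and a lycopene beta cyclase in Swiss-Prot, with a lycopene cyclase domain. It stayed between 1.38 and 2.06 FPKM in all 6 libraries.

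LCYE is where the ortholog sum and the named gene part. Summed over its 10 unigenes, LCYE was at 24.8, 26.1 and 22.0 FPKM in leaves and 24.2, 28.1 and 20.8 FPKM in PLBs. The groups overlapped and the ortholog was not called (log2 fold change 0.15, SE 0.12, edgeR adjusted p = 0.282). The 7 unigenes described as lycopene epsilon cyclase, all of LOC110115201, were at 24.4, 25.7 and 21.5 FPKM in leaves and 6.13, 5.93 and 3.73 FPKM in PLBs. Every leaf library was above every PLB library, and the locus was called lower (log2 fold change −2.36, SE 0.21, edgeR adjusted p = 2.53e-05) under all 11 alternatives tried.

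The remaining LCYE counts came from 2 genes whose nucleotide match is not a cyclase. LOC110099137, with the contig CL15112.Contig1, matches a histone H2AX-like transcript, although its best Swiss-Prot protein is lycopene epsilon cyclase. It was at 0.25, 0.25 and 0.29 FPKM in leaves and 14.96, 18.4 and 12.7 FPKM in PLBs (log2 fold change 5.56, SE 0.26, edgeR adjusted p = 1.06e-06). LOC110098808, with CL856.Contig2, matches a WD repeat-containing protein, again with lycopene epsilon cyclase as the best Swiss-Prot protein, and was at 0.16, 0.21 and 0.19 FPKM in leaves and 3.15, 3.73 and 4.40 FPKM in PLBs (log2 fold change 3.97, SE 0.25). Both loci were called higher. Whether their contigs join separate transcripts or carry a wrong annotation was not tested, and the LCYE sum depends on it. With them added, the summed ranges overlapped. LOC110115201 made up 98.1% ± 0.281 of LCYE FPKM in leaves and 21.4% ± 3.69 in PLBs (exact permutation p = 0.1).

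Within the named gene, CL4911.Contig1 went from 651, 679 and 508 counts in leaves to 90.3, 111 and 61.7 in PLBs (log2 fold change −3.10, SE 0.25, edgeR adjusted p = 3.76e-05). CL4911.Contig2 had 42.0, 75.3 and 50.8 counts in leaves and none in PLBs, at least 69.4-fold lower, a call lost without any of the leaf libraries. A contig of the same gene went the other way: Unigene63354, named here after its values were seen, had 12.01, 6.28 and 1.54 counts in leaves and 111, 87.4 and 57.5 in PLBs. Its ranges did not overlap, and its adjusted p of 0.00129 missed the rule for unigenes (log2 fold change 3.36, SE 0.58).

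**Figure D3:**
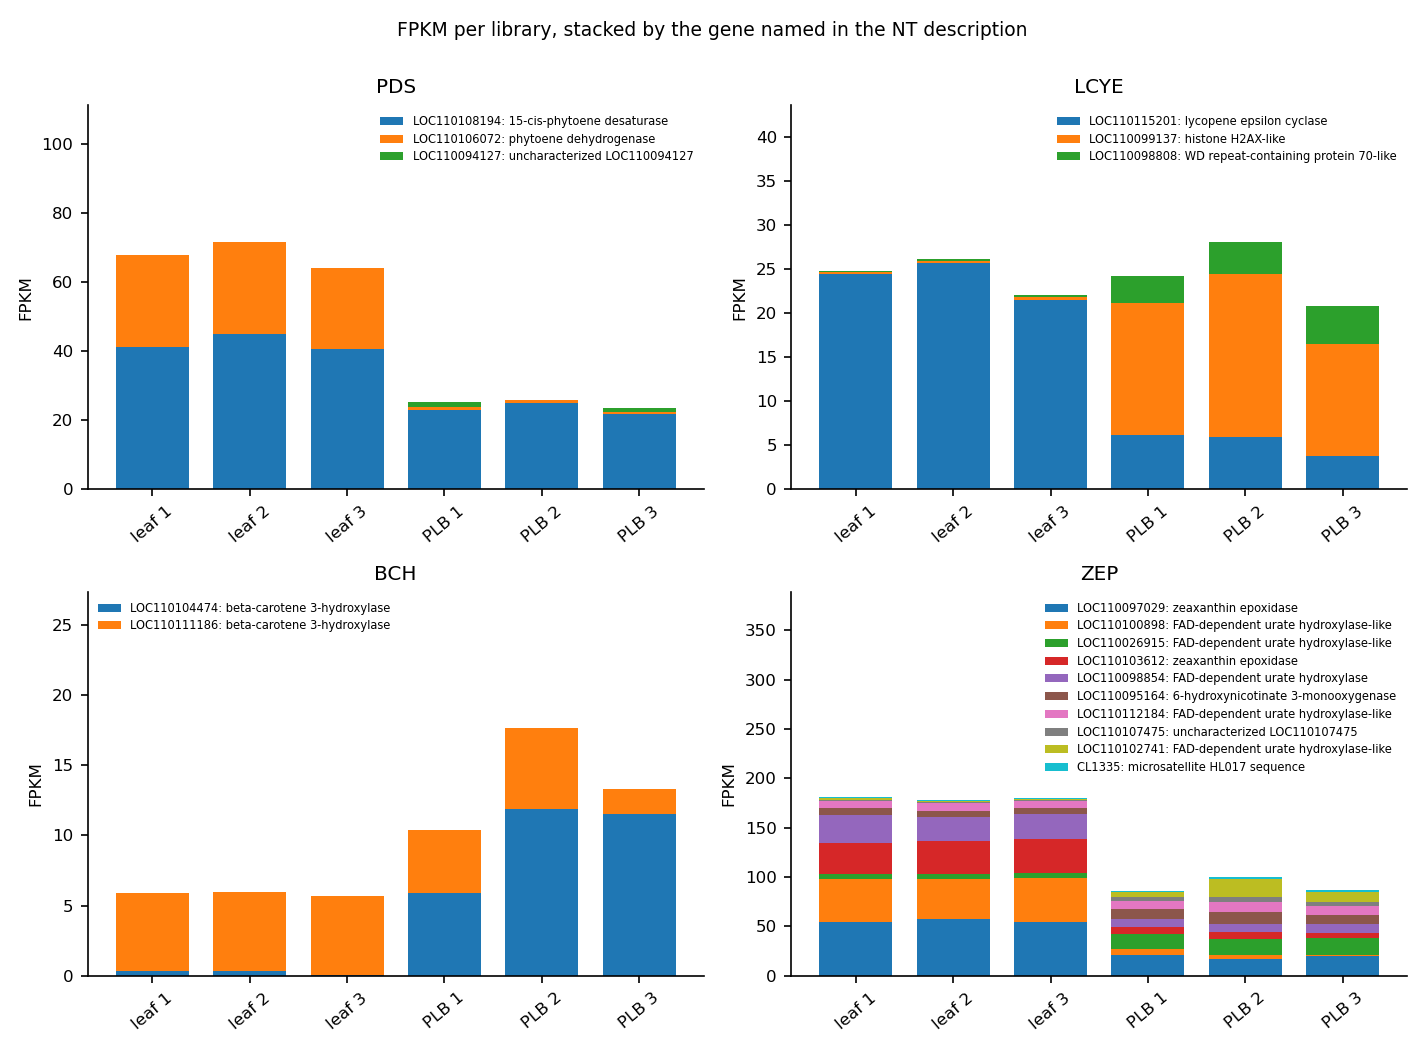
Stacked bars show FPKM per library on a linear axis, split by the gene named in the nucleotide description, for PDS, LCYE, BCH and ZEP. Among LCYE bars the segment of the histone H2AX-like match reaches 12.7 to 18.4 FPKM in PLBs, and among BCH bars LOC110104474 is at most 0.33 FPKM in leaves and 5.91 to 11.9 FPKM in PLBs.

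BCH was the only one of the 8 orthologs called higher in PLBs. It stood at 5.90, 6.00 and 5.67 FPKM in leaves and 10.4, 17.6 and 13.3 FPKM in PLBs, with no overlap (log2 fold change 1.32, SE 0.20, edgeR adjusted p = 4.96e-04). All 5 contigs matched a beta-carotene hydroxylase, and they belonged to 2 genes that behaved differently. LOC110104474 was at 0.30, 0.33 and 0.08 FPKM in leaves and 5.91, 11.9 and 11.5 FPKM in PLBs (log2 fold change 5.05, SE 0.49, edgeR adjusted p = 3.58e-05), called under all 11 alternatives. Its contig Unigene25123 went from 5.87, 4.65 and 2.00 counts to 105, 160 and 155 (log2 fold change 4.68, adjusted p = 7.59e-05). Unigene25121 was also called higher, from 1.30 counts in a single leaf library to 15.6, 44.9 and 68.5 in PLBs, and lost the call without any leaf library, PLB replicate 2 or PLB replicate 3.

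The other BCH gene, LOC110111186 with the contig Unigene39356, was at 5.60, 5.67 and 5.59 FPKM in leaves and 4.47, 5.72 and 1.78 FPKM in PLBs. The ranges overlapped, PLB replicate 3 being the low one, and the locus was not called (log2 fold change −0.80, SE 0.39, edgeR adjusted p = 0.0989). LOC110111186 held 96.0% ± 2.25 of BCH FPKM in leaves and 29.6% ± 15.0 in PLBs, and LOC110104474 took the rest (exact permutation p = 0.1). Kept to Unigene39356, the contig with the most BCH counts, the ortholog had a log2 fold change of −0.73 (adjusted p = 0.0844), so its rise rested on the second gene.

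ZEP, which turns zeaxanthin into violaxanthin, had the highest summed level of the 8 orthologs in both tissues. The ortholog was at 181, 179 and 179.97 FPKM in leaves and 85.9, 100.3 and 87.2 FPKM in PLBs (log2 fold change −0.96, SE 0.077, edgeR adjusted p = 1.43e-05), with no overlap. Its 29 unigenes came from 10 loci, and the NT description named zeaxanthin epoxidase for 10 unigenes of 2 of them. These 10 summed to 88.5 ± 2.61 FPKM in leaves and 26.0 ± 2.71 FPKM in PLBs, a larger fall than that of the ortholog (log2 fold change −1.95, SE 0.080, adjusted p = 6.73e-07). LOC110097029 was at 54.5, 57.9 and 54.1 FPKM in leaves and 21.2, 17.0 and 20.2 FPKM in PLBs (log2 fold change −1.82, SE 0.096, adjusted p = 1.70e-06). LOC110103612 was at 31.5, 33.4 and 34.0 FPKM in leaves and 7.79, 6.63 and 5.16 FPKM in PLBs (log2 fold change −2.61, SE 0.17, adjusted p = 4.12e-06).

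By contig, CL4005.Contig1 of LOC110097029 went from 1146, 1146 and 1132 counts to 368, 366 and 371 (log2 fold change −1.94, edgeR adjusted p = 1.33e-05). CL11353.Contig1 of LOC110103612, whose best Swiss-Prot match is a monooxygenase, went from 817, 873 and 844 counts to 88.3, 65.5 and 48.0 (log2 fold change −3.96, adjusted p = 1.04e-05). The tissues did not overlap in either contig.

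Of the other 8 ZEP loci, 5 match flavin-dependent urate hydroxylases, enzymes that act on other substrates, and these loci moved in both directions. LOC110100898 was at 44.0, 40.6 and 44.5 FPKM in leaves and 5.60, 4.25 and 0.78 FPKM in PLBs (log2 fold change −3.97, SE 0.52, edgeR adjusted p = 1.80e-04), a call lost without leaf replicate 2 (adjusted p = 0.0010049) or leaf replicate 3 (adjusted p = 0.00168). LOC110098854 was at 28.1, 25.2 and 25.6 FPKM in leaves and 7.93, 8.19 and 9.17 FPKM in PLBs (log2 fold change −1.98, SE 0.13). LOC110026915 rose from 4.99, 4.39 and 5.79 FPKM to 15.2, 15.9 and 17.5 FPKM (log2 fold change 1.43, SE 0.14, adjusted p = 3.95e-05). In all 3 loci the tissues did not overlap.

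LOC110107475, an uncharacterized gene, rose from 1.14, 1.2 and 1.35 FPKM to 3.61, 4.25 and 4.23 FPKM (log2 fold change 1.39, edgeR adjusted p = 2.32e-04), and lost the call without any of the leaf libraries. LOC110102741 varied widely among PLBs, at 4.77, 19.0 and 10.2 FPKM against 1.96, 1.47 and 1.01 FPKM in leaves, and was not called (log2 fold change 2.63, SE 0.53, adjusted p = 0.00213). Without PLB replicate 1 it was called (adjusted p = 3.26e-04). Contigs called higher included CL1335.Contig7 of LOC110026915 (60.4, 54.8 and 79.1 counts in leaves, 424, 461 and 506 in PLBs) and CL3859.Contig1 of LOC110095164 (62.5, 84.7 and 70.8 in leaves, 340, 432 and 295 in PLBs), the second losing its call without any leaf library. The other contig of LOC110095164, CL3859.Contig7, was called lower. CL3859.Contig1 held 37.6% ± 7.35 of the counts of that locus in leaves and 100% in PLBs. The locus itself, described as a 6-hydroxynicotinate 3-monooxygenase, was not called (log2 fold change 0.56, SE 0.19, edgeR adjusted p = 0.0242). The loci described as zeaxanthin epoxidase held 49.2% ± 1.78 of ZEP FPKM in leaves and 28.8% ± 5.07 in PLBs (exact permutation p = 0.1).

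VDE, which returns violaxanthin to zeaxanthin under strong light, came from a single gene, LOC110102739. It was at 23.7, 24.5 and 22.8 FPKM in leaves and 9.05, 9.10 and 7.38 FPKM in PLBs (log2 fold change −1.69, SE 0.10, edgeR adjusted p = 3.49e-06), with no overlap. Of its contigs, only CL3907.Contig2 was called: it went from 513, 471 and 512 counts to 1.1, 9.79 and 2.11 (log2 fold change −7.10, SE 0.52, adjusted p = 2.57e-05). CL3907.Contig1 was at 332, 408 and 265 counts in leaves and 322, 317 and 256 in PLBs, with overlapping ranges (log2 fold change −0.47, SE 0.19, adjusted p = 0.0604).

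**Figure D4:**
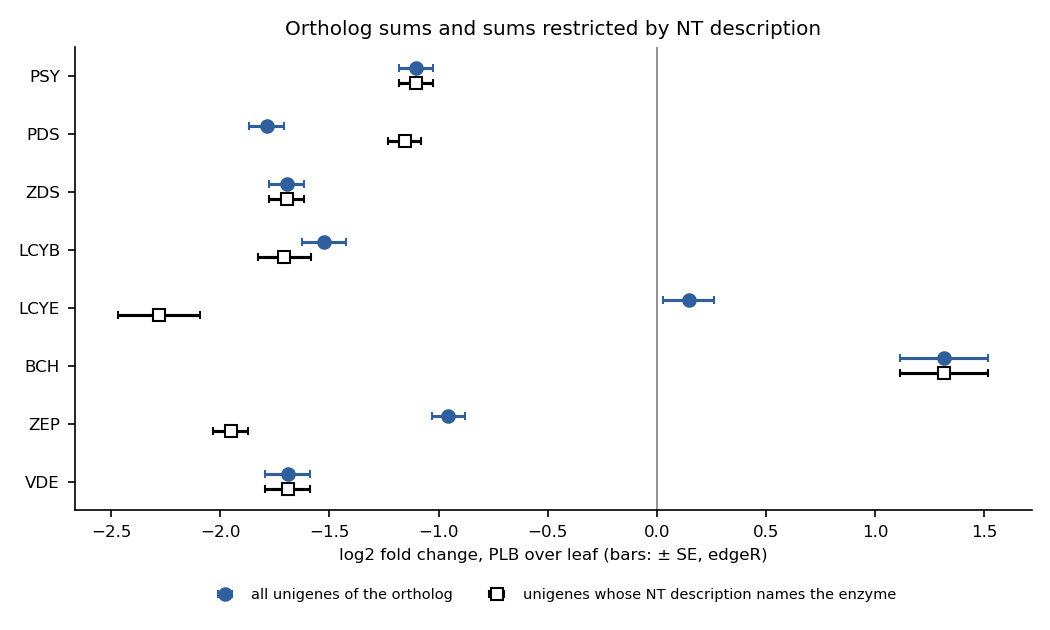
Points show the log2 fold change, PLB over leaf, of each of the 8 orthologs with its standard error (edgeR), as filled circles for all unigenes and open squares for those whose NT description names the enzyme. The symbols lie together for PSY, ZDS, BCH and VDE, and apart for PDS (−1.79 and −1.15), LCYE (0.15 and −2.28) and ZEP (−0.96 and −1.95).

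The balance at the fork was taken as the share of LCYE in the summed FPKM of both cyclases. It was 47.7%, 46.5% and 46.9% in leaves and 67.3%, 71.5% and 67.1% in PLBs, 21.6 percentage points higher in PLBs (exact two-sided permutation p = 0.1). With the contigs named as cyclases only, the share went the other way, from 48.9%, 47.2% and 48.3% to 37.5%, 38.6% and 31.4%, 12.4 points lower (exact permutation p = 0.1). The direction of this balance thus turned with the choice of LCYE contigs.

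VDE made up 11.6%, 12.1% and 11.2% of the summed FPKM of ZEP and VDE in leaves and 9.53%, 8.32% and 7.80% in PLBs, 3.09 points lower (exact permutation p = 0.1). Kept to contigs named as these enzymes it was 21.1% ± 0.538 in leaves and 24.7% ± 2.73 in PLBs, 3.61 points higher (exact permutation p = 0.1). Set against LOC110097029 alone, the shares overlapped, at 29.9% ± 0.365 and 30.5% ± 4.06 (exact permutation p = 0.8).

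Other steps of the route were listed apart from the 8 enzymes. Of its 4 orthologs, 3 were called lower, against 38.6% of all orthologs, and Z-ISO was not (log2 fold change −0.08, SE 0.11, edgeR adjusted p = 0.503). CRTISO, which isomerises prolycopene to lycopene, fell by 1.06 on the log2 scale, the beta-ring hydroxylase CYP97A by 1.68 and the epsilon-ring hydroxylase CYP97C, which completes lutein, by 0.72. Of the CRTISO counts, 38.1% in leaves and 71.9% in PLBs came from LOC110092812, described as a pyridine nucleotide-disulfide oxidoreductase domain-containing protein. That locus was not called (log2 fold change −0.23, edgeR adjusted p = 0.209). The sign of Z-ISO turned with scaling by library size only (0.17) and without PLB replicate 1 (0.03). As with LCYE, the gene that carries its name fell. LOC110105626, described as zeta-carotene isomerase, was at 23.5, 23.7 and 26.1 FPKM in leaves and 4.14, 6.20 and 4.51 FPKM in PLBs (log2 fold change −2.37, SE 0.21, edgeR adjusted p = 2.13e-05). LOC110112682, an uncharacterized gene under the same ortholog, rose from 3.37, 3.13 and 3.78 FPKM to 14.97, 19.5 and 19.4 FPKM. The largest Z-ISO locus was LOC110095580, also uncharacterized, with 50.4% of the Z-ISO counts in leaves and 37.7% in PLBs. It was not called (log2 fold change −0.58, edgeR adjusted p = 0.00407).

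Prolycopene isomerase LOC110100092 fell in PLBs, being at 15.1, 15.7 and 13.6 FPKM in leaves and 0.58, 0.66 and 0.21 FPKM in PLBs (log2 fold change −5.31, SE 0.34, edgeR adjusted p = 4.42e-06). Prolycopene isomerase 2, LOC110108203, was at 6.14, 5.57 and 6.23 FPKM and 3.21, 1.89 and 3.0 FPKM and missed the locus rule (log2 fold change −0.98, adjusted p = 0.00209). Under the CYP97A ortholog, LOC110025132 (described as LUTEIN DEFICIENT 5) fell 4.01-fold and LOC110092144 (LUTEIN DEFICIENT 5-like) 4.60-fold. LOC110108258, described as cytochrome P450 97B2 rather than 97A, fell 2.74-fold. LOC110038921 (log2 fold change 1.03, edgeR adjusted p = 0.0172) and LOC110027965 (0.26, adjusted p = 0.677) of that ortholog were not called. CYP97C came from LOC110099518, at 22.4, 22.0 and 20.6 FPKM in leaves and 18.0, 18.1 and 15.4 FPKM in PLBs.

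Of 5 tested orthologs that supply or use GGPP, 2 were lower, 1 was higher and 2 were not called. Over all orthologs, 38.6% were lower and 37.2% higher. Geranylgeranyl diphosphate synthase (GGPS), which makes the substrate of PSY, was at 134, 149 and 137 FPKM in leaves and 36.9, 37.6 and 29.4 FPKM in PLBs (log2 fold change −2.21, SE 0.11, edgeR adjusted p = 1.48e-06). Its large-subunit gene LOC110105288 fell 4.12-fold, and its small-subunit genes LOC110104072 and LOC110096199 fell 6.11-fold and 21.8-fold. Geranylgeranyl reductase (GGR), which makes the phytyl chain of chlorophyll and tocopherol, fell by 2.25 on the log2 scale, and its main gene LOC110107874 fell 5.37-fold. Copalyl diphosphate synthase (CPS), which draws GGPP into gibberellins and other diterpenes, rose from 5.91, 6.67 and 5.52 FPKM to 46.5, 38.8 and 37.2 FPKM (log2 fold change 2.97, SE 0.094, adjusted p = 2.95e-07). Of the CPS counts in PLBs, 60.5% came from LOC110095908, described as a levopimaradiene synthase, with 1 count in leaves and 1091, 892 and 655 in PLBs. The gene named copalyl diphosphate synthase, LOC110096881, was at 4.80, 4.43 and 5.18 FPKM in leaves and 12.2, 17.4 and 21.1 FPKM in PLBs (log2 fold change 1.49, SE 0.21, edgeR adjusted p = 2.91e-04). It lost its call without any leaf library or PLB replicate 2.

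The ubiquinol oxidase ortholog, which joins mitochondrial oxidases with the plastid oxidase that serves the desaturases, was not called (log2 fold change 0.21, adjusted p = 0.132), and neither was homogentisate phytyltransferase (HPT) (log2 fold change 0.16, adjusted p = 0.252). Scaled by library size only, both were called higher, as was HPT without PLB replicate 2 (0.26) and the oxidase without PLB replicate 1 (0.34) or with limma on FPKM (0.57). With limma on FPKM the sign of HPT turned (−0.20). The HPT sum joined genes called in opposite directions, all described as homogentisate phytyltransferase. LOC110092574 was at 32.1, 34.8 and 32.9 FPKM in leaves and 8.53, 8.91 and 6.4 FPKM in PLBs (log2 fold change −2.42, SE 0.16), and LOC110098468 at 2.62, 2.55 and 3.18 FPKM and 16.8, 15.1 and 20.5 FPKM (log2 fold change 2.74, SE 0.15). LOC110097761, with 4, 8 and 4 counts in leaves and 46, 65 and 38 in PLBs, was called higher and lost the call without any single library except PLB replicate 3. Inside the oxidase ortholog, the plastid gene LOC110108805 was at 56.6, 47.0 and 55.9 FPKM in leaves and 19.6, 13.8 and 14.01 FPKM in PLBs (log2 fold change −2.07, SE 0.16, edgeR adjusted p = 9.29e-06). A further plastid-type gene of that ortholog, LOC110026236, was at 17.7, 19.2 and 17.7 FPKM and 30.2, 46.5 and 35.2 FPKM and was not called (log2 fold change 0.73, adjusted p = 0.0073), though it was with library size only (1.04). The mitochondrial LOC110113915 rose from 17.9, 17.5 and 15.1 FPKM to 59.2, 112 and 107 FPKM, a call lost without leaf replicate 2 or leaf replicate 3.

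**Figure D5:**
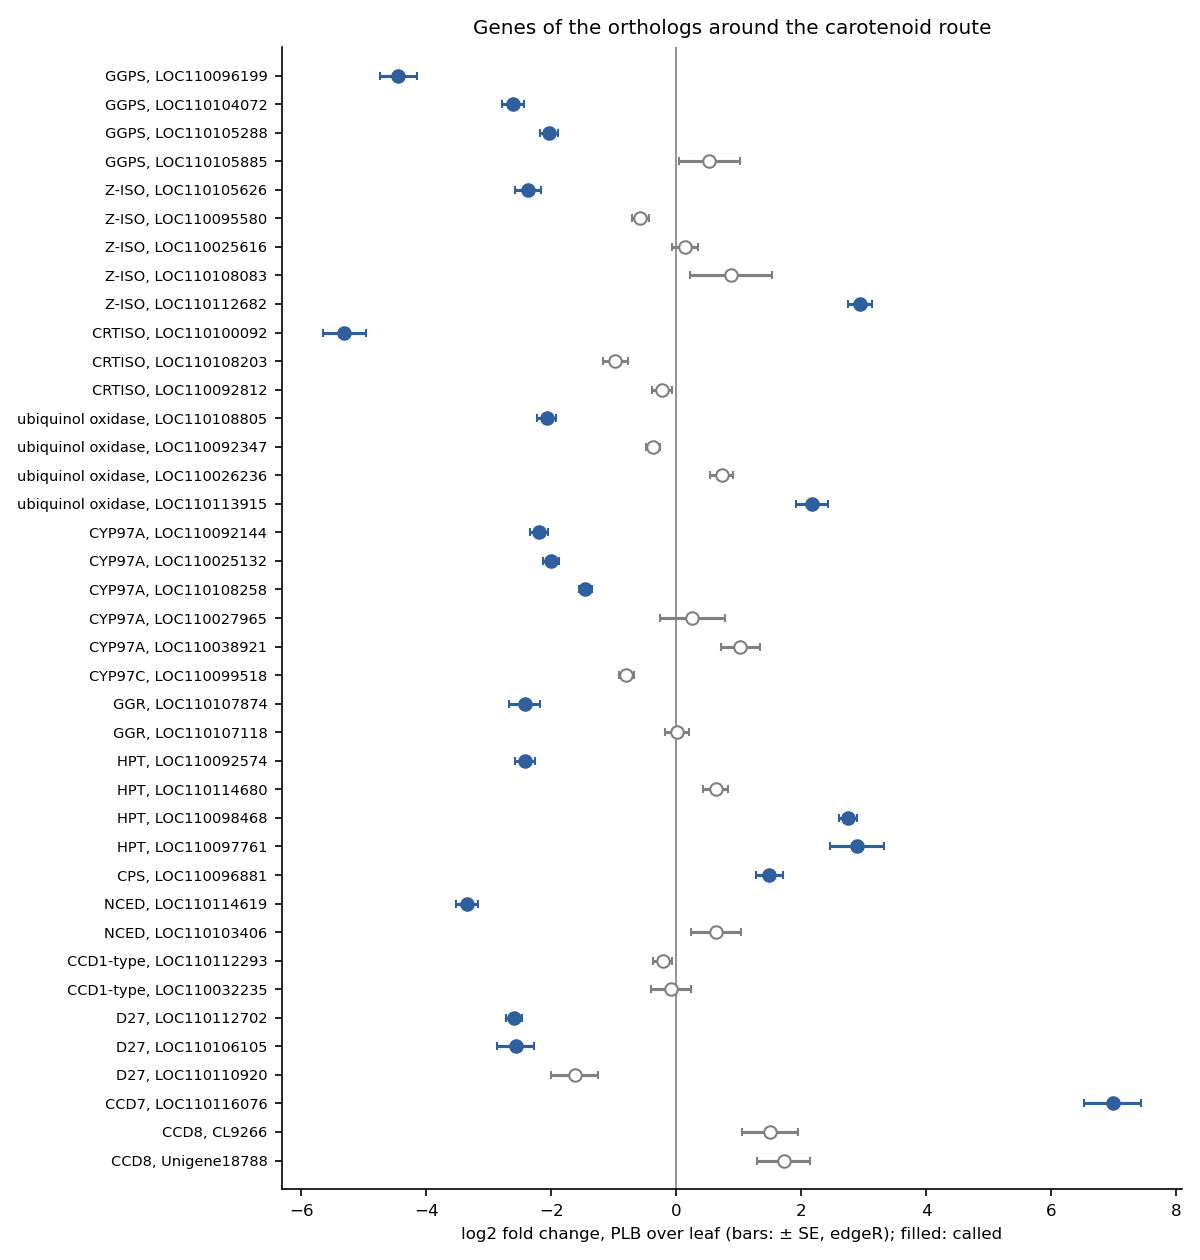
Points show the log2 fold change, PLB over leaf, with its standard error (edgeR) for 39 loci of the orthologs around the carotenoid route, filled where called under the locus rule. Of these 14 were lower, 6 higher and 19 not called, and another 4 called loci with 3 counts or fewer in a tissue (3 higher, 1 lower) are not drawn. Among all 29109 loci tested, 21.4% were lower and 17.4% higher.

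Of the 5 carotenoid-cleaving orthologs, 2 were lower, 2 higher and 1 was not called, shares near those over all orthologs (38.6% and 37.2%). The NCED ortholog, whose namesake opens the branch to abscisic acid, was at 145, 152 and 151 FPKM in leaves and 23.5, 25.6 and 38.0 FPKM in PLBs (log2 fold change −3.02, SE 0.20, edgeR adjusted p = 4.82e-06). Its counts in leaves came to 98.7% from LOC110114619, described as zeaxanthin cleavage dioxygenase, which fell 10.2-fold. The locus described as 9-cis-epoxycarotenoid dioxygenase, LOC110103406, was at 2.29, 2.31 and 2.07 FPKM in leaves and 3.59, 2.06 and 7.44 FPKM in PLBs, with overlapping ranges (log2 fold change 0.63, SE 0.39, adjusted p = 0.177).

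Strigolactones are made from beta-carotene by D27, CCD7 and CCD8 in turn. D27 fell from 77.1, 87.1 and 91.9 FPKM to 25.0, 24.4 and 14.8 FPKM (log2 fold change −2.42, SE 0.18, edgeR adjusted p = 9.45e-06), and both of its named genes, LOC110106105 and LOC110112702, were called lower. CCD7 had 2, 3 and 1 counts in leaves and 221, 400.0 and 409 in PLBs (log2 fold change 7.12, SE 0.45, adjusted p = 4.25e-06). CCD8 went from 1.01, 1.91 and 1.42 FPKM to 6.63, 3.87 and 6.83 FPKM (log2 fold change 2.13, SE 0.37, adjusted p = 9.56e-04). Its counts were spread over several unnamed contigs. Of these CL9947 was called, with none in leaves and 38, 18 and 37 counts in PLBs, a call lost without any single library except PLB replicate 2.

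The antenna proteins that bind these pigments were lower throughout. All 12 light-harvesting orthologs tested, PsbS among them, were lower in PLBs, against 38.6% of all orthologs. Their median log2 fold change was −3.74. They summed to 14748 to 17602 FPKM in leaves and 609 to 1796 FPKM in PLBs. The 12 are not all separate results. LHCA1 and LHCB1 had also served as leaf markers, and most counts of LHCB4 and of LHCB5 came from contigs matching the same gene, LOC110095223. PsbS, which senses excess light together with the xanthophyll cycle, was at 1009, 1045 and 981 FPKM in leaves and 16.6, 13.2 and 2.02 FPKM in PLBs (log2 fold change −6.82, SE 0.65, edgeR adjusted p = 3.39e-05). Over the 8 carotenoid orthologs, by comparison, leaf libraries summed to between 420 and 437 FPKM and PLB libraries to between 207 and 244 FPKM. The difference between the lists, and the part of the antenna genes in the carotenoid results, was not tested. All 12 calls held without each library in turn.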

How the data were processed

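The libraries were sequenced on BGISEQ-500 and assembled with Trinity and Tgicl by the authors, with no reference genome. The deposited expected counts were estimated by the authors with Bowtie2 (2.2.5) and RSEM (1.2.8), per the submitters' processing notes, and 59.1% to 64.9% of the nonzero values were not whole. The deposited FPKM values, corrected by the authors for effective length and depth, gave levels and shares. The deposited TPM values, scaled by the authors within each library, served as an alternative for shares. Columns of the authors' own comparison (fold changes and p-values) were not used.

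Expected counts were summed per ortholog, cluster or locus, rounded, filtered with filterByExpr, scaled by TMM and tested with edgeR (4.0.16, R 4.3.3), as PLB over leaf with no covariate. P-values were adjusted by Benjamini-Hochberg over all features of a level, and each SE was derived from the estimate and its F statistic. Shares were compared with exact permutation tests. The scripts were tested on simulated data. DESeq2 (1.42.0), limma (3.58.1), library size only, no filter, a laxer call and leaving out each library were the alternatives.

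The members and lists were chosen with earlier results of these data known. All 8 orthologs were named. Unigenes were named where they held the most counts of their ortholog, or were called and among the 2 with the most counts in their direction within it. Genes of other lists were to be named where called, but of the marker and light-harvesting lists only examples are named. Loci, uncalled genes of other lists and any other contig were named after their values were seen. Pairs of libraries of a tissue were compared over all unigenes. Chi-square divided by its degrees of freedom was 5.18 to 6.19 for leaf pairs and 16.6 to 19.5 for PLB pairs. No pair was within sampling noise, so none was treated as a repeat deposit. This does not show that the samples are independent.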

Additional observations from a re-analysis of the deposited data

How the results depend on the processing

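Of 293 alternative values, 264 kept the direction and the side of the threshold, or for counts stayed within 1.5 times. PSY, PDS, ZDS, LCYB, ZEP and VDE stayed lower under all 17 alternatives each, ZEP ranging from −1.95 to −0.71. An alternative kept to orchid protein matches left all 88 unigenes in place, so it could not differ from the main value. Kept to unigenes named as the enzyme, PSY, ZDS, BCH and VDE lost no unigene, nor did VDE with its largest cluster only. Such values are counted among the 264. LCYE (0.15) moved to 0.39 with library size only, −3.20 with its largest cluster only, −2.28 with unigenes named as the enzyme, and −0.0027 and −0.0023 with limma on FPKM plus 0.1 and plus 1. The cause of the limma and scaling shifts was not tested. BCH became −0.73 with its largest cluster only. Orthologs called higher rose from 1 to 2 with library size only, and the called orthologs of GGPP supply and use from 3 to 5. Unigenes called higher (10) numbered 17 with DESeq2 and 23 with an adjusted p under 0.05 and no minimum change. Clusters called higher (5) numbered 8, 9 and 11 with DESeq2, no filter and the laxer call, and loci (5) numbered 8 with the laxer call. The LCYE share difference (21.6 points) was 27.1 from expected counts and −12.4 from named unigenes, and that of VDE (−3.09) was −5.03, 3.61 and, with LOC110097029 alone, 0.615. Leaving out a library gave 4 to 6 unigenes and 2 to 5 clusters called higher. LCYE ranged from 0.05 to 0.22 and BCH from 1.13 to 1.52.

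No paired analysis was possible because the labels give no replicate numbers, and those used here follow accession order and only name a library. With 3 libraries a tissue, the exact test of a share cannot go below 0.1. Low counts limit the precision of single contigs, and reads shared among contigs make their single values uncertain.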
